A study of Mus musculus with 47 samples.

Results

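ATF3 binding sites were compared between Pbrm1 knockout (KO) and control NMuMG cells after 48 h of TGFβ1 (5 ng/ml), with 1 ChIP-seq library for each genotype. The members are all ATF3 peaks of these 2 libraries on chromosomes 1 to 19, X and Y: 45716 peaks in control and 144513 in the KO, or 190229 of the 806216 peaks of the 32 lists in the series. NMuMG is a mouse mammary gland epithelial cell line that passes through an epithelial-mesenchymal transition (EMT) under TGFβ1. Both libraries used the same antibody on chromatin fixed with formaldehyde after a longer-reach crosslinker (disuccinimidyl glutarate), and each was called against an input of its own genotype and time. The control is labelled only as control. How many clones the KO stands for is not given in the sources used here, and the peak lists cannot show whether Pbrm1 was lost.

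ATF3 is a bZIP transcription factor that is rapidly induced by stress and by TGFβ. It binds DNA as a dimer with itself or with other bZIP proteins, JUN proteins among them, at AP-1 and cyclic AMP response element (CRE) sequences, and with C/EBP-family or ATF4 partners at composite sequences. Pbrm1 encodes polybromo, the subunit that defines PBAF. PBAF is a chromatin remodeller of the SWI/SNF type that also holds PHF10 and the ATPase BRG1.

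Peaks were put into classes by an overlap of at least 1 bp with the other genotype's list. Because the KO list was the longer, every comparison was made on the full lists and again on lists of equal length, for which the 45716 KO peaks with the highest −log10 q (the peak caller's significance against input) were kept. The last KO peaks kept and the first left out had the same −log10 q, 4.95. In all 1960 KO peaks stood at that value, of which 104 were kept in file order. With 1 library per arm there was no spread between libraries and no test, and the 95% intervals given are exact (Clopper-Pearson) and cover counting error only.

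Promoter sequences beside ATF3 summits are printed first, as examples of motif matches in the 3 classes. Each is the stretch around the match, and the summit lies in the same 300-base promoter window but, except at Lrrc8b, outside the printed bases. For each class of the equal-length lists these are the promoters with the most significant peak among those holding a searched motif, with the promoter of Atf3 itself added. The letters are RefSeq sequence of GRCm38.p6, the assembly called mm10, read 5′ to 3′ on the gene's strand, and capitals mark the motif match.

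The promoters of Cnnm4 and Lrrc8b carried the summit of a control peak that overlaps a KO peak. Cnnm4, encoding a magnesium transport mediator, held a CRE beginning at −24 from the start site (chr1:36471513-36471616, plus strand). Lrrc8b, which encodes a subunit of volume-regulated anion channels, held an AP-1 match (chr5:105415525-105415621, plus strand).
Cnnm4: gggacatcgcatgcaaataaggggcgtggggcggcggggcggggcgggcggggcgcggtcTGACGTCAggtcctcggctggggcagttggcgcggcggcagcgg
Lrrc8b: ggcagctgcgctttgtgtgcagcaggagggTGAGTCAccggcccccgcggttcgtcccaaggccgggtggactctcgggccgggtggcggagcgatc

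The control-only promoters were those of Vash2, a vasohibin-family gene linked to angiogenesis (chr1:190979175-190979248, minus strand), and Cgref1 (chr5:30945594-30945720, minus strand). Both matches were AP-1 sequences.
Vash2: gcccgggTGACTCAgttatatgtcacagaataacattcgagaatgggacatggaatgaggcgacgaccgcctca
Cgref1: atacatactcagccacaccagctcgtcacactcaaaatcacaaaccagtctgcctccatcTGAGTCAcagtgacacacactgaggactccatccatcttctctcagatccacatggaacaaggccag

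The KO-only promoters were those of Bglap3 (chr3:88372797-88372924, minus strand), with a composite C/EBP-ATF match, and St7 (chr6:17749109-17749189, plus strand), with a CRE across the start site. Bglap3 is an osteocalcin-related gene beside its close copies Bglap and Bglap2, so reads there may be shared between copies and its peak is uncertain.
Bglap3: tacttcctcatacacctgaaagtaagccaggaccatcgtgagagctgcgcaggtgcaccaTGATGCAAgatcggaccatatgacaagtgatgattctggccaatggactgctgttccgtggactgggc
St7: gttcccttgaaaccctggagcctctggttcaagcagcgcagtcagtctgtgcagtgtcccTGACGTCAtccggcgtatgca

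The Atf3 promoter (chr1:191183376-191183503, minus strand) held a composite match on the opposite strand and, at −210 from the start site, a summit at the same base in both libraries.
Atf3: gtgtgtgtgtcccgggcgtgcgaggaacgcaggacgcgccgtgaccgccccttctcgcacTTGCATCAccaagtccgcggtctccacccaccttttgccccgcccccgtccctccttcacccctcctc

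The ATF3 peak at this promoter was among the strong ones in both lists, with a −log10 q of 64.2 over chr1:191182427-191184046 in control and 43.9 over chr1:191182438-191183959 in the KO. At Cnnm4 the control peak had a −log10 q of 178.0 and lay at chr1:36471147-36472268. The KO-only peaks printed were much less significant, 11.8 at Bglap3 (chr3:88372776-88373585) and 11.3 at St7 (chr6:17749071-17749408), against 65.1 at Vash2 (chr1:190978174-190979290) and 43.3 at Cgref1 (chr5:30945088-30945685). These −log10 q values depend on read depth and are ranks within a list, not binding strengths that can be set against each other across libraries.

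A minority of promoter windows with a summit held a motif anywhere in the window. The motifs searched, on both strands, were TGANTCA for AP-1, TGACGTCA for CRE and TGATGNAA for the composite. Among all 21263 promoter windows of 300 bases in the table, 6.99% held the AP-1 match, 2.23% the CRE and 3.6% the composite. At equal length the AP-1 match was in 3.91% (2.71 to 5.45) of the 844 windows with the summit of a shared control peak, in 3.9% (2.9 to 5.12) of the 1257 control-only windows and in 7.94% (3.87 to 14.1) of the 126 KO-only windows, which is 10 windows. The CRE was in 2.25%, 2.23% and 1.59% of the same windows and the composite in 1.18%, 1.59% and 2.38%. So promoter windows with a control summit held the AP-1 and composite letters less often than promoters in general, beyond counting error, and the CRE at the general rate. The KO-only interval for AP-1 covers both the general share and that of the other classes. Sequence away from promoters was not analysed here.

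As deposited, the KO had more peaks, and they were weaker in the peak caller's terms and farther from gene starts. The median −log10 q was 14.4 in control and 4.01 in the KO. The control peaks covered 24.0 Mb with a median width of 381 bp, and the KO peaks 58.3 Mb with 318 bp. Promoter peaks, those within 2 kb of a gene start, made up 34.5% (34.1 to 35.0) of control peaks against 16.2% (16.0 to 16.4) of KO peaks. The excess of peaks depended on the threshold: the log2 ratio of KO to control peak number was 1.66 (1.65 to 1.68) as deposited, 0.10 (0.08 to 0.12) for peaks with a −log10 q of at least 5, and −1.51 (−1.53 to −1.48) for peaks with a fold enrichment over input of at least 5. The comparisons that follow are therefore also given at equal length, and read depth is not in the files.

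Most control sites had a KO peak once the whole KO list was read, and a minority had one at equal length. Over the full lists 30483 control peaks (66.7%, 66.2 to 67.1) overlapped a KO peak and 15233 did not. Read from the KO side, 31933 of its peaks (22.1%) overlapped a control peak and 112580 lay in the KO list only. At equal length 14087 control peaks (30.8%, 30.4 to 31.2) overlapped a KO peak, 31629 were control only and 31578 were KO only.

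The strongest control sites were nearly all found in the full KO list. Of the first 5000 control peaks by −log10 q, 96.7% (96.2 to 97.2) overlapped a peak of the full KO list, and the share fell with rank to 46.0% in peaks 40001 to 45000. Read against the KO list of equal length, the shares were 72.2% (70.9 to 73.4) and 15.5% (14.5 to 16.5) in the same bins. Of the first 5000 KO peaks, 51.5% (50.1 to 52.9) overlapped a control peak, and in KO peaks 40001 to 45000 the share was 25.7% (24.5 to 26.9). At equal length the control share was thus the higher among the first 5000 peaks and the lower in peaks 40001 to 45000. The best KO partner of a shared control peak had a median rank of 52093 (quartiles 20063 and 91368) among the 144513 KO peaks, and 46.2% of the shared control peaks had a partner in the equal-length list. Over the 30483 shared control peaks, the −log10 q of the pair had a Spearman correlation of 0.30 and the widths one of 0.44. Neither is a replicate measure, since each pair shares its position and its antibody. The summits of a pair were a median of 94.0 bp apart, and 52.1% were within 100 bp.

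The same ranking separated the lists by position. Promoter peaks made up 85.3% of the first 5000 control peaks and 10.4% of peaks 40001 to 45000. In the KO they made up 37.8% of the first 5000 and 18.9% of peaks 40001 to 45000. H3K4me3, the histone mark of active and poised gene starts, measured in control cells at 48 h, was at 98.7% of the first 5000 control ATF3 peaks and at 23.6% of peaks 40001 to 45000.

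**Figure D1:**
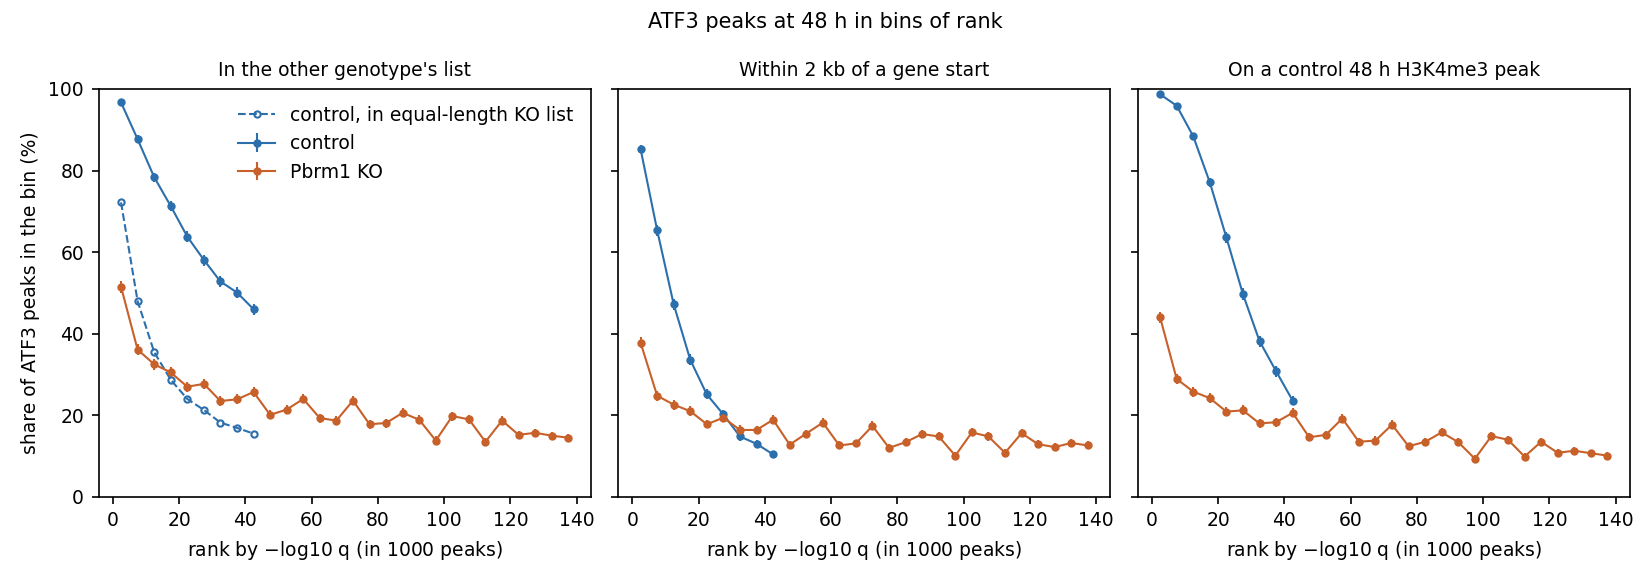
Share of ATF3 peaks at 48 h (y axis, percent) in bins of 5000 peaks ordered by −log10 q (x axis, rank divided by 1000, strongest to the left), for control (blue) and Pbrm1 KO (orange), with exact 95% intervals for counting error. The panels give the share found in the other genotype's full list (dashed line and open points, without intervals: control peaks in the KO list of equal length), the share within 2 kb of a gene start and the share on a control 48 h H3K4me3 peak. The control starts at 96.7%, 85.3% and 98.7% and falls steeply, while the KO starts at 51.5% and 37.8% in the first 2 panels. The dashed line runs from 72.2% to 15.5% and crosses the KO line. KO peaks of equal −log10 q stand in file order, by chromosome, so neighbouring KO bins hold different chromosomes.

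Shared sites were at gene starts more often than control-only sites, and KO-only sites least often. At equal length 52.2% (51.3 to 53.0) of the peaks in both lists were promoter peaks, against 26.7% (26.2 to 27.2) of control-only and 7.61% (7.32 to 7.90) of KO-only peaks. The shares elsewhere inside a gene were 29.8%, 39.7% and 53.4%, and outside genes 18%, 33.6% and 39.0%. Peaks over 50 kb from any gene start were 13.2%, 26.9% and 31.3%. In the full lists the promoter shares were 43.9%, 15.8% and 7.87%, in the same order. The order held when both lists were reduced to their 10000 strongest peaks, at 82.8%, 72.7% and 13.2%.

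Shared peaks were also the widest. The median width at equal length was 566 bp for control peaks in both lists (quartiles 344 and 926), 345 bp for control-only peaks (271 and 507) and 304 bp for KO-only peaks (245 and 431). Peaks of at least 1000 bp were 21.6%, 4.89% and 1.72% of the classes. Over the full lists control-only and KO-only peaks were nearly alike, with medians of 303 and 295 bp, and shared peaks stood at 470 bp. A called width grows with signal over threshold and with depth, so widths are compared here between classes and not as a property of the protein.

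**Figure D2:**
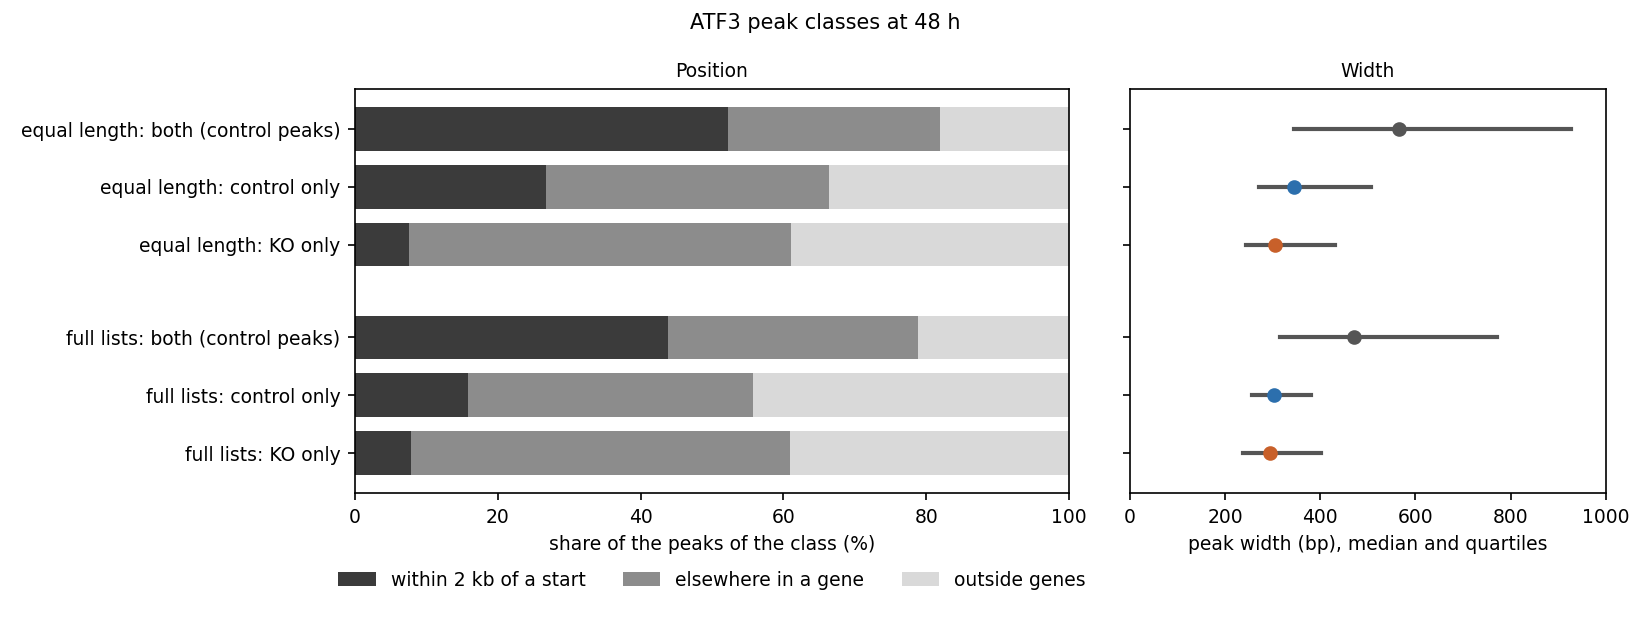
Position and width of ATF3 peaks by class, for lists of equal length (upper 3 rows) and full lists (lower 3 rows). Bars give the share of peaks (x axis, percent) within 2 kb of a gene start, elsewhere in a gene and outside genes, and points with lines give the median width and quartiles in bp. Promoter shares at equal length run 52.2%, 26.7% and 7.61%, and median widths 566, 345 and 304 bp, from shared to control only to KO only.

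At equal length few peaks of a single genotype lay beside a peak of the other. The nearest peak of the equal-length KO list was a median of 11043 bp from a control-only peak, and 9.98% had one within 1 kb. This distance leaves out KO peaks below the cut, many of which lay on control-only sites. In all 30483 control peaks overlapped the full KO list, against 14087 the equal-length list. KO-only peaks had their nearest control peak at a median of 12089 bp, with 8.02% within 1 kb. Of the control-only peaks of the full lists, 24.3% had a KO peak within 1 kb.

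The classes differed widely in the chromatin that control cells carried there. H3K4me3 at 48 h was at 76.7% (76.0 to 77.4) of shared peaks, 55.7% (55.1 to 56.2) of control-only peaks and 1.00% (0.897 to 1.12) of KO-only peaks. The difference was not one of promoters alone: over 2 kb from gene starts the shares were 56.3%, 44.7% and 0.559%. H3K14ac was at 80.9%, 61.7% and 2.36%. H3K27ac, a mark of active promoters and enhancers, was at 46.8%, 17.7% and 0.212%, H3K4me1, which marks enhancers and promoter flanks, at 36.7%, 20.5% and 0.0918%, and H3K18ac at 31.4%, 7.81% and 0.792%. When both lists were reduced to 10000 peaks, H3K4me3 was at 98.4%, 96.9% and 14.7%.

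Most marked sites of control cells lay in the control ATF3 list, with H3K18ac as the exception. Of the 29720 H3K4me3 peaks of control cells at 48 h, 94.0% overlapped a control ATF3 peak, so few were left that a KO-only peak could meet. Of the 1782 H3K4me3 peaks outside the control ATF3 list, 41.4% (39.1 to 43.7) overlapped a peak of the full KO list, against 77.0% of those inside it. For H3K27ac the same shares were 4.35% of 3722 peaks and 88.6%. For H3K18ac only 34.2% of the 20415 peaks overlapped the control ATF3 list, and of the 13443 outside it 5.5% (5.13 to 5.9) overlapped the full KO list, against 93.0% of those inside. The marks were profiled in control cells only, and marks in KO cells were not analysed here.

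PHF10, the PBAF subunit, was read in both genotypes. At equal length its control peaks at 48 h were at 77.4% and 97.6% of shared ATF3 peaks (replicates 1 and 2), at 50.5% and 87.0% of control-only peaks and at 14.3% and 46.1% of KO-only peaks. PHF10 in the KO was at 99.0%, 88.0% and 79.5%. The PHF10 lists differ in length, with 43549 and 102434 peaks in control and 158815 in the KO, the last covering 159.0 Mb, so overlap with the KO list is easier to reach. BRG1 before TGFβ1 (0 h, control) was at 32.7%, 10.1% and 5.32%.

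FOSL2, another bZIP factor, was at few ATF3 peaks, and its lists were short beside the ATF3 lists, which limits these shares. FOSL2 peaks of control cells at 48 h were at 0.447% of shared, 0.136% of control-only and 0.219% of KO-only ATF3 peaks, and KO FOSL2 peaks at 0.781%, 0.291% and 0.418%. Read from FOSL2, 3.08% of its 3444 control peaks overlapped the control ATF3 list, 9.09% the full KO list and 3.89% the equal-length KO list. FOSB lists were short, 188 peaks in control cells and 31 in KO cells. Of the control FOSB peaks, 11.2% overlapped the control ATF3 list, 20.2% the full KO list and 11.7% the equal-length KO list. For the KO FOSB peaks these shares were 19.4%, 22.6% and 12.9%. FOSL2 and FOSB chromatin was crosslinked with formaldehyde only, and the part of this difference in the overlap was not tested. Earlier ATF3 lists were short. Of the 2004 control peaks at 24 h, 27.6% (25.7 to 29.7) overlapped the control list at 48 h. The full KO list at 48 h met 54.7% of them and the equal-length KO list 25% (23.2 to 27). Of 31578 KO-only peaks, 0 (which allows a share of up to 0.0117%) lay in the 20 and 25 ATF3 peaks of 0 h.

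**Figure D3:**
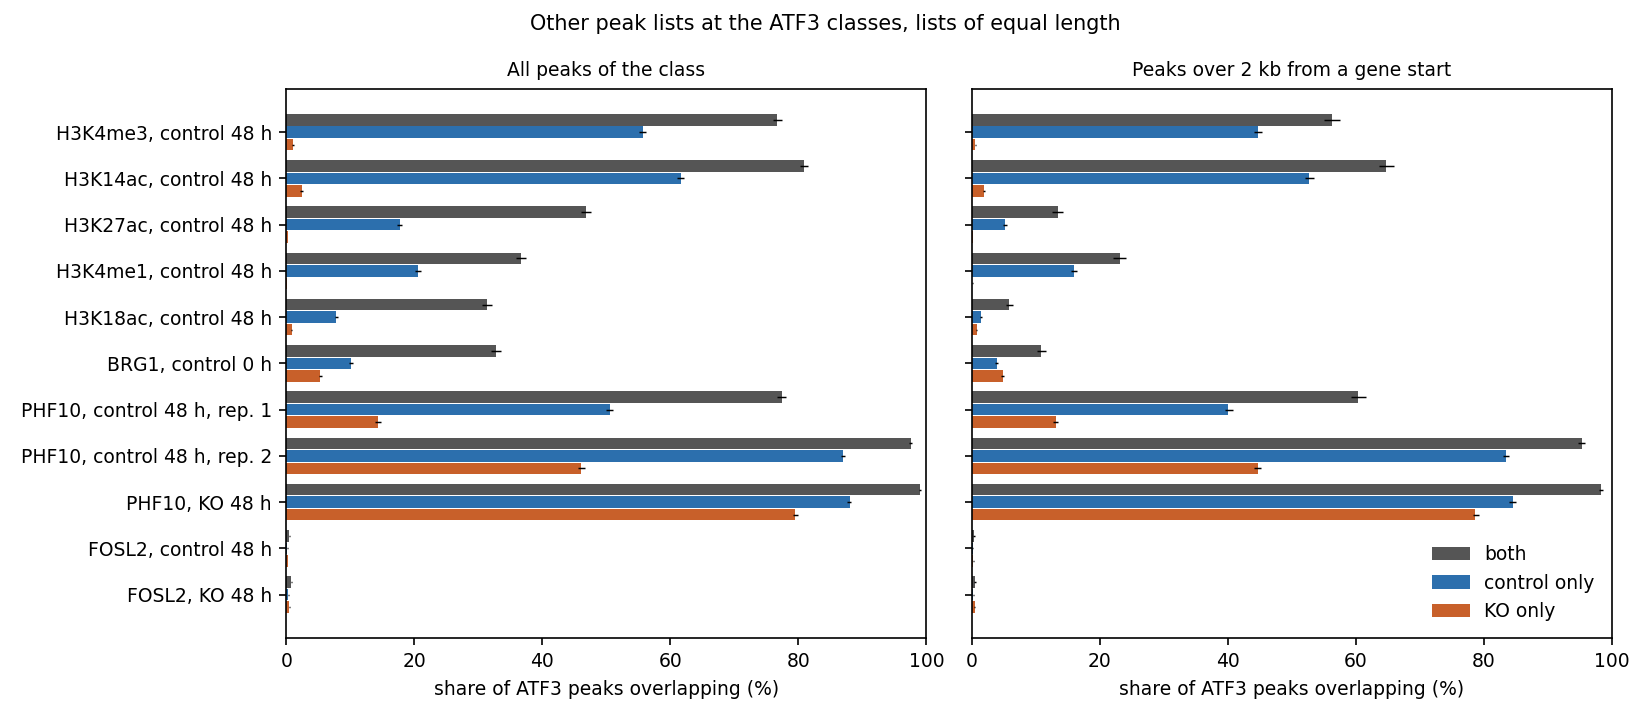
Share of ATF3 peaks at equal length (x axis, percent, exact 95% intervals) that overlap peaks of other lists (rows), for peaks in both genotypes (grey), control only (blue) and KO only (orange), over all peaks (left) and over peaks more than 2 kb from a gene start (right). H3K4me3 runs from 76.7% to 1.00% between shared and KO-only peaks, while PHF10 in the KO is at 79.5% or more of every class on the left and at 78.7% of KO-only peaks on the right.

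Gene by gene, the 2 lists reached many of the same genes. A gene was given a peak where one lay in its span or within 10 kb, and 21887 protein-coding genes were read. With the full lists 16358 genes (74.7%) had a peak in both genotypes, 373 (1.7%) in control only and 2169 (9.91%) in the KO only. At equal length the counts were 13862 (63.3%), 2869 (13.1%) and 1045 (4.77%). A gene had a median of 2.0 peaks in control, 4.0 in the full KO list and 1.0 in the equal-length KO list. With the start alone, a peak within 2 kb was found in both for 8086 genes (36.9%), in control only for 5856 (26.8%) and in the KO only for 775 (3.54%) at equal length, and for 12909 (59.0%), 1033 (4.72%) and 2170 (9.91%) in the full lists. At gene starts the control-only state was thus more frequent than the KO-only state at equal length and less frequent in the full lists. The gene lists below were read against these shares, and no list was tested. Peak numbers of single genes below are from the full lists unless equal length is named, and the KO list is the longer.

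All 20 TGFβ signalling genes had a peak near the start in both full lists. At equal length 12 of 20 were in both and 8 in control only. The 12 included the ligand gene Tgfb1, the receptor genes Tgfbr1 and Tgfbr2, the transducer Smad3 and the inhibitor Smad7. The 8 were Ltbp2, the transducers Smad2 and Smad4, the receptor gene Tgfbr3, the repressor Ski, the ubiquitin ligase gene Smurf1 and the BMP and TGFβ targets Id1 and Id2. At Tgfbr2 the best control peak had a −log10 q of 49.9 (chr9:116174559-116175504) and the best KO peak 6.41 (chr9:116174535-116175190), both at the same place. Id1 had a control peak of 41.4 (chr2:152736282-152736837), and its best KO peak, 5.9, lay apart from it (chr2:152729466-152729901).

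Of 12 genes of EMT transcription factors, 10 had a start peak in both at equal length and 2, Foxc2 and Snai2, in control only. Snai2, which encodes the E-cadherin repressor SLUG, had 1 control peak of −log10 q 7.94 at its start and no KO peak within 10 kb in the full list. Snai1, encoding the related repressor SNAIL, had 4 control and 8 KO peaks in the full lists, and 3 KO peaks at equal length. Its best control peak had a −log10 q of 36.6 and its best KO peak 8.02. Zeb2, a further repressor of epithelial genes, had 6 peaks in each full list, with a best of 45.4 and 8.56. Twist1 had 4 in each, with 32.0 and 9.82. At equal length the KO had 2 peaks at Zeb2 and 1 at Twist1.

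Among 27 matrix, protease and integrin genes, 11 starts were in both, 10 in control only, 0 in the KO only and 6 in neither at equal length. The 10 included the collagen genes Col1a1, Col1a2 and Col4a1, the gelatinase gene Mmp9 and the urokinase gene Plau with its receptor gene Plaur. Fn1, encoding fibronectin, had its start in both, with a best control peak of 32.5 and a best KO peak of 10.9 inside the gene (chr1:71577676-71577979). Mmp13 and Sparc had peaks in the KO alone under the wider rule. Mmp13, encoding collagenase 3, had 1 KO peak 3860 bp from the gene (chr9:7268298-7268653, −log10 q 17.5, fold enrichment 9.54) and none in control. Sparc, encoding osteonectin, had 11 peaks in the full KO list and 0 in control, the best at chr11:55387905-55388248 with a −log10 q of 8.66.

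Of 14 contractile, filament and surface genes, 6 starts were in both, 5 in control only (Axl, Flna, Myl9, Tagln and Tpm2), 1 in the KO only (S100a4) and 2 in neither. Vim, encoding vimentin, had overlapping peaks with a −log10 q of 23.0 in control and 5.63 in the KO. Cd44, encoding the hyaluronan receptor, had 3 KO peaks and 0 control peaks, the best inside the gene at chr2:102826381-102826650 with 8.85. Acta2, encoding smooth muscle actin, had 1 KO peak of 4.01, below the equal-length threshold, and 0 in control.

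Most epithelial genes had ATF3 peaks in both genotypes, as did most housekeeping genes (14 of 20 starts at equal length). Of 24 junction, keratin and surface genes, 18 starts were in both, 5 in control only and 1, Rab25, in the KO only at equal length. All 24 had a peak in both within 10 kb, as did 18 of the 20 housekeeping genes at equal length. Over all protein-coding genes 36.9% of starts, and 63.3% of genes under the 10 kb rule, were in both at equal length. Cdh1, encoding E-cadherin, was control only at its start: the best control peak there had a −log10 q of 38.5 (chr8:106602816-106604210) and its best KO peak, 7.32, lay elsewhere (chr8:106659580-106659855), although the full KO list had a start peak too. At Rab25, a trafficking GTPase gene, the state rests on position, since 6 control peaks lay within 10 kb but none within 2 kb of the start. Of 16 epithelial transcription and splicing factor genes, 12 starts were in both, 1 (Esrp1, a splicing regulator gene) in control only and 3 (Ehf, Elf5 and Trp63) in neither. Grhl2, encoding a grainyhead factor, had 3 control peaks and 22 KO peaks, 9 of them at equal length. Elf5 and Ehf, of the ETS family, had 6 and 3 KO peaks in the full list and 0 in control, with a best −log10 q of 4.0 and 4.34.

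Of the 25 AP-1, ATF, CREB and small MAF genes, 17 starts were in both, 5 in control only (Atf6, Crem, Fos, Fosl2 and Jdp2), 1 in the KO only (Batf2) and 2 in neither. Fosl1, encoding FRA1, had a control peak of 72.6 (chr19:5456600-5457680), and a KO peak of 12.1 over the same place (chr19:5456240-5457622). Jun had 25.5 in control (chr4:95050468-95052017) and 6.04 in the KO (chr4:95050450-95052061). Fosl2 had 50.0 at its start in control (chr5:32134927-32136989), on FOSL2 peaks of both genotypes, and its best KO peak, 6.43, was inside the gene (chr5:32152795-32153172). The full KO list had a peak at the Fosl2 start too, below the equal-length threshold. Fosb had 40.0 (chr7:19309316-19310589) and 7.48 (chr7:19309998-19310631), overlapping at the start. Batf2 had 0 control peaks and 5 KO peaks, 3 of them at equal length.

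Of 22 stress genes known as targets of ATF3 or ATF4, 14 starts were in both at equal length, 7 in control only and 1 in the KO only. The 7 were Cebpg, Chac1, Ddit3, Egr1, Hmox1, Klf6 and Ppp1r15a. Ddit3, encoding CHOP, had a control peak of 31.4 (chr10:127299703-127300030) and a best KO peak of 7.03 elsewhere (chr10:127295778-127296239). The full KO list had a peak near the Ddit3 start too, below the equal-length threshold. Trib3, a pseudokinase gene, had 3 control and 9 KO peaks (3 KO peaks at equal length), with best values of 34.3 and 12.8. Klf6, a zinc finger gene, had 1 control peak at its start (chr13:5861010-5861714, −log10 q 14) and none in the full KO list. Slc7a11, encoding the cystine transporter, showed the opposite: 1 KO peak at the start (chr3:50443070-50443665, 7.82) and 0 in control.

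The YAP target list held 16 of 20 starts in both and 2, Axl and Nt5e, in control only. Ccn1 and Ccn2, encoding matricellular proteins, had control peaks of 41.4 and 39.9 and KO peaks of 9.47 and 7.03. Ankrd1, a classic YAP target, had 0 control peaks and 5 KO peaks, 4 of them at equal length, the best 4786 bp from the gene (chr19:36124631-36124885, 13.5). Among 16 growth arrest and cell cycle genes 11 starts were in both and 5 in control only, Cdkn1a, Cdkn1c, Cdkn2a, Cdkn2b and Cdkn2c. These encode CDK inhibitors, and Cdkn1b, the remaining CDK inhibitor gene of the list, had its start in both, with a best −log10 q of 132 in control and 21.4 in the KO. At Cdkn1a, encoding p21, the control peak had a −log10 q of 46.6 (chr17:29093551-29095760) and the best KO peak, 8.85, lay apart from it (chr17:29100009-29100900). All 16 starts had a peak in both full lists. Over all protein-coding genes 26.8% of starts were control only at equal length. Cdkn2a, Cdkn2b and Cdkn2c lie on chromosome 4, which had 3044 control and 1630 KO peaks at equal length. The control peaks of Cdkn2a (chr4:89294075-89295680) and Cdkn2b (chr4:89310492-89311041) lie close together, so these genes are not separate observations.

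Most genes of SWI/SNF subunits, a list that includes subunits outside PBAF, had ATF3 peaks at the start in both, as did most housekeeping genes. Of 27 SWI/SNF subunit genes, 21 starts were in both, 5 in control only (Brd9, Dpf1, Dpf3, Smarcc1 and Smarce1) and 1 in neither. Pbrm1 had 3 control and 5 KO peaks (1 KO peak at equal length), and its start was in both genotypes in the full and equal-length lists. Its best KO peak lay at the start (chr14:31018471-31019529, −log10 q 14). Its best control peak, 26.5, lay 9176 bp from the gene at the start of another (chr14:31130769-31131767). Phf10 had 47.6 (chr17:14960624-14961309) and 7.77 (chr17:14960985-14961240). Smarca4, encoding BRG1, had 24.6 at its start (chr9:21615771-21616797), and its best KO peak was 6.91 inside the gene (chr9:21660565-21660912). At equal length the KO had a peak near the Smarca4 start too.

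Chemokine and cytokine genes had few peaks. At equal length 2 of 21 starts were in both, 7 in control only, 1 (Ccl5) in the KO only and 11 in neither. The 7 control-only starts were Ackr3, Csf1, Cxcl1, Cxcl2, Cxcl3, Cxcl5 and Lif. The Cxcl genes lie close together on chromosome 5 and are not separate observations: 1 control peak (chr5:90786055-90786446) is counted for Cxcl3 and Cxcl15. Cxcl5, encoding a neutrophil chemokine, had 2 control peaks, the best of −log10 q 44.1 and fold enrichment 18.8 (chr5:90757295-90757684), and none in the full KO list. Cxcl1 had 1 peak in each full list, of 28.5 (chr5:90891196-90891529) and 3.86. Ccl5 had 3 KO peaks, the best in the gene at its start (chr11:83530296-83530556, 7.54), and 0 in control.

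Housekeeping genes and genes of other lineages were read for comparison. Of 20 housekeeping genes, 14 starts were in both, 5 in control only (Pgk1, Psmb4, Rplp0, Sdha and Tbp) and 1 in neither. Of 25 genes of other lineages, 3 starts were in both, 7 in control only (Apoa1, Dazl, Ddx4, Grin1, Myod1, Myog and Syt1), 2 in the KO only (Gata1 and Myh6) and 13 in neither. The peak counted for Tbp (chr17:15526808-15527381, 64.1) lay 9380 bp from that gene at the start of another. The germ line gene Dazl had a control peak of 42.1 at its start (chr17:50292590-50294151), on an H3K4me3 peak, and a KO peak there in the full list. As a check of the label, all 8 epithelial marker genes had H3K4me3 within 2 kb of the start in control cells at 0 and 48 h and 8 of 8 had H3K27ac at 0 h and 5 of 8 at 48 h. Of 10 marker genes of other lineages, 5 had H3K4me3 at both times, and 2 (Apoa1 and Myod1) had H3K27ac at 0 h and 0 at 48 h.

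**Figure D4:**
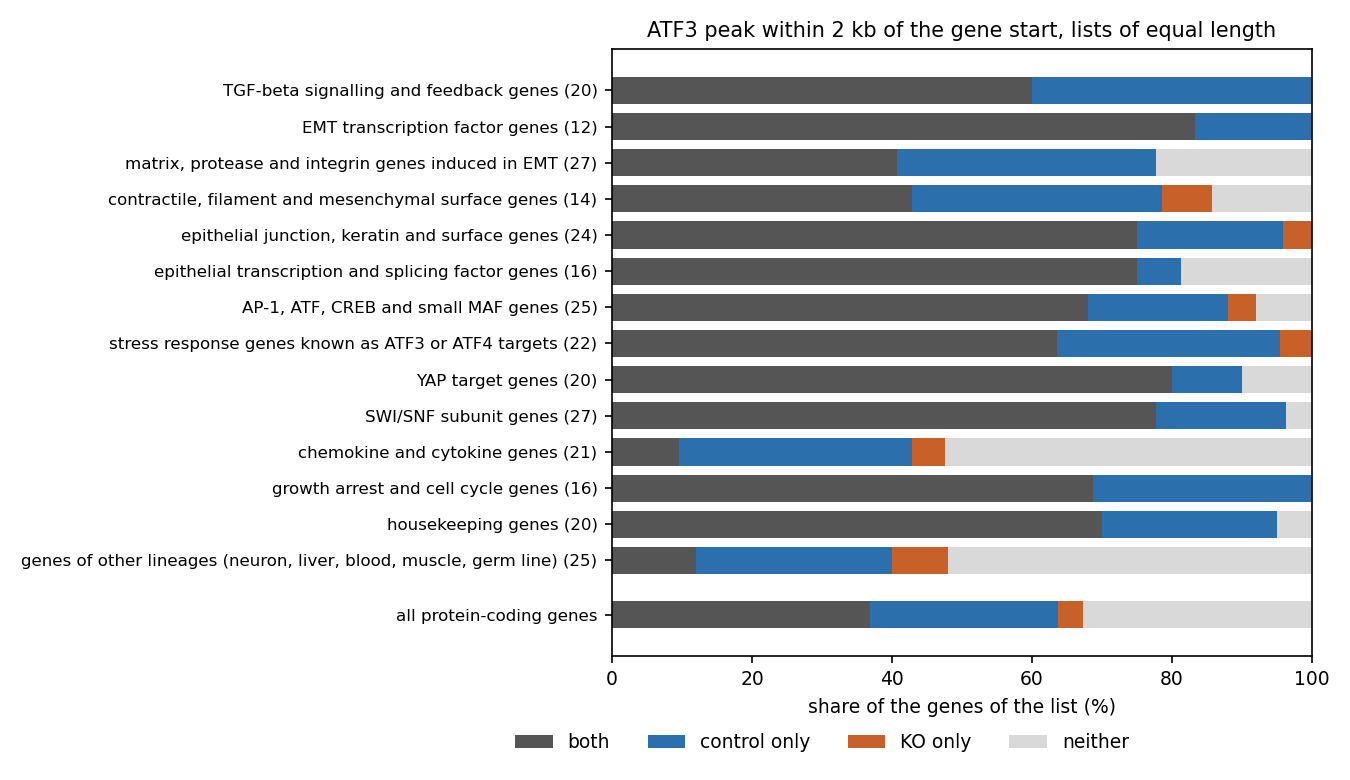
Share of the genes in each list (x axis, percent; number of genes in brackets) with an ATF3 peak within 2 kb of the start in both genotypes, in control only, in the KO only or in neither, at equal length. All protein-coding genes stand at 36.9%, 26.8% and 3.54% for the first 3 states, and chemokine genes and genes of other lineages have the most starts in neither, 11 of 21 and 13 of 25.

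The best peaks of the named members were read against the shares of their classes. By −log10 q the 10 leading control-only members at equal length were Tbp, Cxcl5, Dazl, Brd9, Cdkn1c, Cxcl1, Cdkn2a, Crem, Ptprc and Nt5e, and all 10 peaks lay on control H3K4me3 peaks. Of these, Cxcl5, Ptprc and Nt5e had no KO ATF3 peak over the site even in the full list. The 10 leading KO-only members were Mmp13, Ankrd1, Cd44, Sparc, Slc7a11, Ccl5, Tnnt2, Batf2, Lyz2 and Gata1, and 0 of the 10 peaks lay on control H3K4me3 or H3K27ac peaks, while 8 lay on PHF10 peaks of the KO. Over all KO-only peaks the shares were 1.00%, 0.212% and 79.5%. Over all control-only peaks H3K4me3 was at 55.7%, and the members were taken from the most significant peaks, where H3K4me3 is more frequent. The control-only values ran from 23.2 to 64.1 and the KO-only values from 5.91 to 17.5. Peaks of these members were at 0 bp from their gene for 6 of the control-only and 5 of the KO-only genes. Tnnt2 (troponin T), Lyz2 (lysozyme) and Gata1 (a blood transcription factor) are genes of other lineages. In the full lists 5 members were control only, Snai2, Klf6, Cxcl5, Ttr and Tyr, and the last 2 are liver and pigment cell genes. Over all protein-coding genes 1.7% (373 of 21887) were control only in the full lists. The Tyr peak had a −log10 q of only 3.13 and lay 9234 bp from the gene.

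The most significant peaks of all were sites that many lists share. The strongest in both genotypes lay at chr2:98666558-98667325 in control (−log10 q 16397, fold enrichment 7.3), over 2 Mb from a gene start, and all 32 lists of the series had a peak there. The 10 strongest shared peaks had a peak in 13 to 32 lists, including those near Rpusd4, in Zc3h7a and in the overlapping genes Cmss1 and Filip1l. Of the 10 strongest control-only peaks, 4 lay over 100 kb from a gene and in 8 to 17 lists. The other 6 lay at gene starts with H3K4me3, at Mms19 and Ubtd1, Rbpms (an RNA-binding protein gene), Fam122a and Pip5k1b, Ctsf (cathepsin F), Ak3 (adenylate kinase) and Atg16l1 (an autophagy gene), with −log10 q values of 75.9 to 87.7. All but the Atg16l1 peak overlapped a KO peak below the equal-length threshold. Of the 10 strongest KO-only peaks, 5 lay in Sfi1 on chromosome 11 within chr11:3131929-3165733, and the others lay in or near Ly6c2, Chl1, Aida, Scaf8 and Lars2. Their fold enrichment was 2.64 to 5.96, and they had a peak in 1 to 8 lists. Whether such regions hold repeats was not tested.

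Chromosomes did not contribute evenly. In the full lists the log2 ratio of KO to control peaks ran from 1.08 on X to 1.86 on chromosome 19, leaving out Y with 12 and 14 peaks. At equal length it ran from −1.12 on chromosome 14 (1264 control and 582 KO peaks) to 0.94 on chromosome 19 (1680 and 3234), with −0.90 on chromosome 4, −0.82 on 18, −0.77 on X, 0.48 on 3 and 0.46 on 15. On chromosome 14 52.4% of control peaks had a partner in the full KO list, and on 19 83.0%. PHF10, treated the same way, had −0.78 and −0.34 on chromosome 14 against its control replicates 1 and 2, −1.02 and −0.48 on 4, and 0.62 and 0.26 on 19. On X it went the other way from ATF3, with 0.22 and 0.09. FOSL2 had 0.41 on chromosome 14, 0.20 on 4 and −0.11 on 19, against the sign of ATF3, and −0.55 on X, with its sign (22 control and 15 KO peaks). Copy number of the chromosomes in the 2 lines was not measured, and its part in these ratios was not tested. With the KO list shortened within each chromosome to the control's number, 30.6% of control peaks had a KO partner and the promoter shares of the classes were 52.3%, 26.7% and 7.59%, as large as before.

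**Figure D5:**
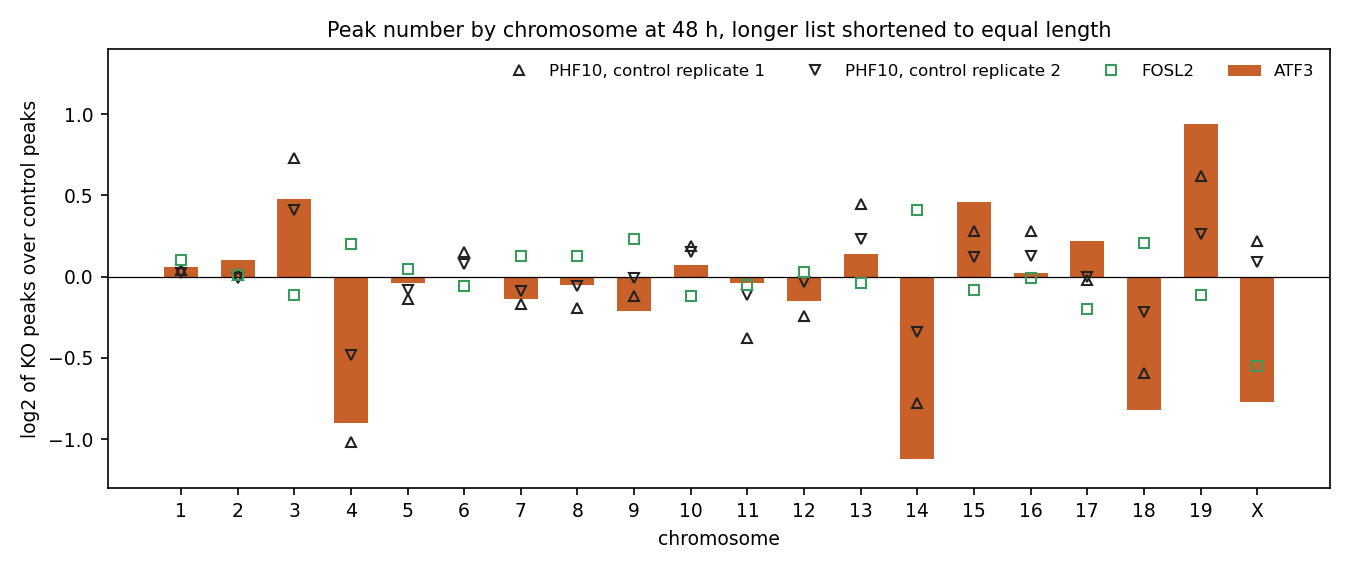
Log2 ratio of KO to control peak number at 48 h by chromosome (x axis), with the longer list shortened to the length of the shorter, for ATF3 (bars), PHF10 against each control replicate (triangles) and FOSL2 (squares). ATF3 is lowest on chromosome 14 (−1.12) and highest on 19 (0.94); PHF10 is on the same side of 0 on chromosomes 4, 14 and 19, and FOSL2 is not, while on X FOSL2 is and PHF10 is not.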

How the data were processed

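ATF3 ChIP-seq of control and Pbrm1 KO NMuMG cells at 48 h of TGFβ1 gave 1 peak list each. The other 30 of the 32 lists served for overlap, and some of them also for ratios of peak number. The submitters' processing notes give mm10 as the build and list the peak caller MACS3 (3.0.0a7), the aligner Bowtie2 (2.3.3), the read trimmer fastp (0.19.5), deepTools (3.5.1) and Partek (11.0.24.0325). Their settings are not given in the sources used here. Per the file's name column, peaks were called per library against 1 input of the same genotype and time, with no pooling recorded.

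The deposited pileup signal was not used for a comparison. Of the 2 deposited −log10 columns, for the p-value and the q-value, the q-value column ranked and cut the lists. Fold enrichment, a ratio of ChIP to input deposited by the authors, was otherwise read within a list. The exception was an alternative setting, where the same fold minimum cut both lists before peak numbers and overlap were compared. Starts were taken as 0-based, because the deposited length equals end minus start, and are printed counted from 1. Read depth is not in the peak lists, so no value is corrected for it.

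Groups came from the labels. The members and gene lists were chosen with earlier results of these data known. Classes used an overlap of 1 bp. Gene spans and starts came from RefSeq tables of GRCm38.p6: 17492 of 21887 protein-coding genes (79.9%) had a start with strand, and either end served for the rest, so a peak at the far end of such a gene can count as a promoter peak. Named genes were list members with a peak in 1 genotype only at equal length (the 10 most significant a class), control-only members of the full lists, genes at the 10 strongest peaks of each class, and the genes of the proteins studied. Other members of the lists are named as examples, chosen after their values were seen. With 1 library per arm no test was run, and intervals at 95% (SciPy 1.17.1) cover counting error only, since neighbouring peaks are not independent. The interval code was tested on simulated data.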

Additional observations from a re-analysis of the deposited data

Results flagged for a closer look

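The ATF3 peak number moved in opposite directions at the 2 later times. The log2 ratio of KO to control was −4.86 at 24 h (69 against 2004 peaks) and 1.66 at 48 h (144513 against 45716), with 1 library in each arm at each time. The difference between the times was not tested. Both ratios depend on the peak caller's threshold and on read depth, which was not used here.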

How the results depend on the processing

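Of 62 alternative values over 14 results, 24 moved by less than the counting interval (for gene counts, less than 1.5 times), 37 by more and 1 reversed. The log2 ratio of peak number was 0.10 at a −log10 q of at least 5, −1.51 at a fold of at least 5 and 1.50 with peaks merged within 1 kb. The share of control peaks in the full KO list was 63.7% at 50% overlap, 31.8% at the higher −log10 q and 6.95% at the higher fold. At equal length it was 29.9% at 50% overlap, 22.0% with the KO list cut by fold, 25.8% with both lists at 10000 peaks and 25.6% at 2000. Promoter shares (both, control only, KO only) were 48.4%, 23.0% and 4.34% within 1 kb, 59.7%, 34.9% and 16.2% within 5 kb, 42.3%, 32.4% and 5.98% with the KO list cut by fold, 82.8%, 72.7% and 13.2% at 10000 peaks, and 53.9%, 29.9% and 11.9% with either gene end as a start. At 50% overlap the KO-only promoter share was 8.00%. The H3K4me3 shares were 71.3%, 59.6% and 0.731% with the cut by fold and 98.4%, 96.9% and 14.7% at 10000 peaks. Median widths were 482, 363 and 285 bp with the cut by fold. Control-only genes numbered 1647 with 50 kb flanks and 373 in the full lists, and KO-only genes 2169 in the full lists. In every setting run for each of them, promoter shares, H3K4me3 shares (cut by fold, cut within chromosomes, 10000 peaks) and widths (50% overlap, cut by fold, cut within chromosomes) were highest in shared and lowest in KO-only peaks. The cause of each shift was not tested. Cuts within each chromosome, without tied peaks, by fold (for H3K4me3 shares) and to 10000 peaks (for promoter and H3K4me3 shares) were added after seeing the data. So were the settings with either gene end and in the full lists (for genes). No paired analysis was possible because each arm had 1 ATF3 library at 48 h, which also means that no replicate could be left out.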

Other observations

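Peak numbers of the other factors at 48 h also differed between the genotypes, in both directions. FOSL2 lists held 3444 control peaks and 7381 KO peaks (log2 ratio 1.10, interval 1.04 to 1.16). FOSB lists held 188 and 31 (−2.60, interval −3.20 to −2.05). PHF10 had 158815 in the KO against 43549 and 102434 in the control replicates, ratios of 1.87 and 0.63, so the control replicates differed from each other by more than the second from the KO. The gene with the most ATF3 peaks in its span and 10 kb to either side was Gse1 in both full lists, with 75 in control and 198 in the KO. At equal length it was Sh3pxd2a in the KO, with 54.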
